A study of Homo sapiens with 6 samples.

Results

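The genes described here lie in bands q14 to q23 of the long arm of human chromosome 11, from PRCP to PAFAH1B2 and the neighbouring SIDT2 and TAGLN. The matrix metalloproteinase (MMP), caspase, IAP and YAP1 genes of the same stretch were kept out of the list. The list holds 45 genes, of which 41 were measured among 11963 named genes in all. It was drawn up with the comparison of the arrays known, so the differences below describe these genes and are not tested as a finding. SESN3, MAML2, CWF19L2 and USP28 had no probe set that names them, so they have no signal here and enter only the description of promoters.

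Expression was measured on 6 single-colour arrays of total RNA from cells labelled HSC2, an established human oral squamous carcinoma line, grown in DMEM with serum. The labels give 3 arrays to cells with a stable transfection of MALT1 cDNA (full length, wild type), which codes for a paracaspase of NF-kappaB signalling. The other 3 carried the vector alone and are called mock. The study set one against the other to find MALT1-responsive genes. The labels do not say whether the lines are clones or pools, or whether the arrays of a group come from separate cultures, so the p-values cover the spread among these arrays and no more, part of which may be technical. The number of arrays limits the precision.

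The labels and the data differed in 2 respects. On its brightest probe set, MALT1 itself read 175 to 194 in the group labelled MALT1 and 248 to 257 in the mock group (−0.47 on the log2 scale). The probe set with the largest difference read 107 to 128 against 236 to 282 (−1.08). The remaining probe set read 164 to 195 against 208 to 227 (−0.28), and its difference did not reach an adjusted p under 0.05. All 6 measured markers of squamous epithelium were lower on the arrays labelled MALT1, with a summed signal of 13681 to 15671 against 33018 to 38041, and none was at background. All 10 luminal breast epithelium markers were higher there, with a summed signal of 76182 to 84450 against 8897 to 9644, and 3 of them (KRT19, TFF1 and FOXA1) were at or below background on all arrays labelled mock. Summed fibroblast markers read 140 to 268 against 153 to 206, and leukocyte markers 58.9 to 95.7 against 29.0 to 39.6. Of the 5 measured leukocyte markers, 4 were at or below background on all arrays labelled mock and 2 on all 6 arrays, so these sums are near background. Of the 7 fibroblast markers, 2 were at or below background on all arrays labelled mock and 1 on all arrays labelled MALT1. The identity of the cells on these arrays cannot be settled from the files used here, so a difference below is one between 2 sets of arrays and is not shown to come from MALT1. The part of the marker differences in the results was not tested, and each group keeps the name of its label below. In bulk RNA, fewer cells of a type and less RNA per cell cannot be told apart.

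A chromosome band has no function of its own, and the genes of this stretch have unrelated roles. They include the DNA damage kinase ATM and the nuclease MRE11, parts of the machinery of mitosis, mitochondrial enzymes, adhesion molecules and proteins of membrane traffic. Neighbouring genes on a segment of DNA that is lost or gained tend to change in RNA level together. These arrays measured RNA only, and DNA copy number was not analysed here.

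Some neighbours in the stretch start back to back on opposite strands and share the DNA between their starts. Some of these shared stretches, those of 3 pairs, are shown, because both genes of each were measured and above background in at least 1 group. They were chosen after the values were seen. All are on the plus strand of GRCh38.p14, 5′ to 3′, from RefSeq start sites, and end before either transcript begins. Capitals mark GC boxes (GGGCGG or its reverse complement CCGCCC) and CCAAT boxes (CCAAT or ATTGG).
ATM and NPAT, chr11:108222817-108222888, the part held by both promoter windows: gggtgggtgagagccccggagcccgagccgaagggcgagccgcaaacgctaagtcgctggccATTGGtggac
ANKRD49 and MRE11, chr11:94493845-94493983: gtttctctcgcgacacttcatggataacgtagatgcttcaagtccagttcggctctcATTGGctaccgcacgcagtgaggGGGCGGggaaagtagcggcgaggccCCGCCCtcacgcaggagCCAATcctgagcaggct
RBM7 and C11orf71, chr11:114400512-114400665: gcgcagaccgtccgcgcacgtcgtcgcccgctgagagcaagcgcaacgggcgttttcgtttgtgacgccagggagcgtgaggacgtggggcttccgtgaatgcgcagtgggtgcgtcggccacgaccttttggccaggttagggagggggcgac

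The genes of the first 2 stretches were lower together in the group labelled MALT1, whereas those of the last lay on opposite sides. ATM and NPAT differed by −1.48 and −1.42 on the log2 scale, and ANKRD49 and MRE11 by −1.49 and −1.69. RBM7, an RNA-binding protein, differed by −1.44, whereas C11orf71, whose start lies 155 bases away, differed by 1.48. ANKRD49, RBM7 and C11orf71 are not in the list. The ANKRD49 and MRE11 stretch holds 2 GC boxes and 2 CCAAT boxes, the ATM and NPAT stretch 1 CCAAT box and no GC box, and the RBM7 and C11orf71 stretch neither.

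The 250 bases before the start of REXO2, which was lower on the arrays labelled MALT1, and of SIDT2, which was higher, are shown in the same way, both on the plus strand. Each has a single start in the table.
REXO2, chr11:114439217-114439466: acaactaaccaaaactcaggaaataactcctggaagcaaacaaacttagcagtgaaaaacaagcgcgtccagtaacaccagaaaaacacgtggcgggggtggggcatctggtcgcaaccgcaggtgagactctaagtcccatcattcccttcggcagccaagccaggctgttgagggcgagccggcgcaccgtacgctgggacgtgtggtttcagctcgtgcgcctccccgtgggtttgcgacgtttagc
SIDT2, chr11:117178493-117178742: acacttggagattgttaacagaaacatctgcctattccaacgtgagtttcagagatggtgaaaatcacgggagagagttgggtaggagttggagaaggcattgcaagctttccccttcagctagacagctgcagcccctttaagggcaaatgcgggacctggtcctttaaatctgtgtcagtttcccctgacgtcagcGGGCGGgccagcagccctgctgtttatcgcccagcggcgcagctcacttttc

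Of the 45 genes, 38 have a promoter window of 300 bases in the RefSeq table (250 before the start and 50 after, the first start listed for each gene). CRYAB, TIMM8B, NCAM1, ZBTB16, NNMT, CADM1 and TAGLN have none. A GC box stood in 24 of the 38 windows (63.2%), against 44.6% of all 27305 windows of that length, on either strand. A CCAAT box stood in 18 (47.4% against 35.7%) and a TATA box (TATAAA or TTTATA) in 2 (5.26% against 12.0%). The median GC content was 61.5% in the 38 windows, from 45.0% for SESN3 to 80.3% for RDX, and 58.3% over all windows. These matches describe letters only.

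Most measured genes of the list were lower on the arrays labelled MALT1. The median difference over the 41 genes was −1.10 in log2(signal + 1), MALT1 minus mock, with the middle of the distribution between −1.48 and −0.39, against a median of 0.08 over all 11963 genes. In 37 of the 41 the difference was below 0, as it was in 5450 of all 11963 genes. At an adjusted p under 0.05 in limma's fit over all 22215 probe sets, 31 of 41 were lower, where 19.2% of all genes were, and 2 were higher, where 21.1% were. At least 2-fold lower were 22, against 9.64% of all genes, and 2 (CADM1 and SIDT2) were at least 2-fold higher, against 10.8%. The 2 groups did not overlap in 36 genes: all arrays labelled MALT1 were the lower ones in 33, against 25.6% of all genes, and the higher ones in 3, against 29% of all genes. Since the list was chosen on this contrast, nothing is read from these counts.

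The arrays of a group were close to each other over these genes. Measured from the mean of the mock arrays, the median log2 difference of the list was −1.07, −1.09 and −1.08 on MALT1 replicates 1, 2 and 3, and 0.02, −0.01 and −0.01 on mock replicates 1, 2 and 3. Over all genes it was 0.01, 0.01 and 0.21 on MALT1 replicates 1, 2 and 3. The median SD within a group was 0.12 on the log2 scale for the genes of the list and 0.21 over all genes. The genes of the list were also brighter, with a median signal of 848 against 143 over all genes. The SDs were not compared at equal signal.

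**Figure D1:**
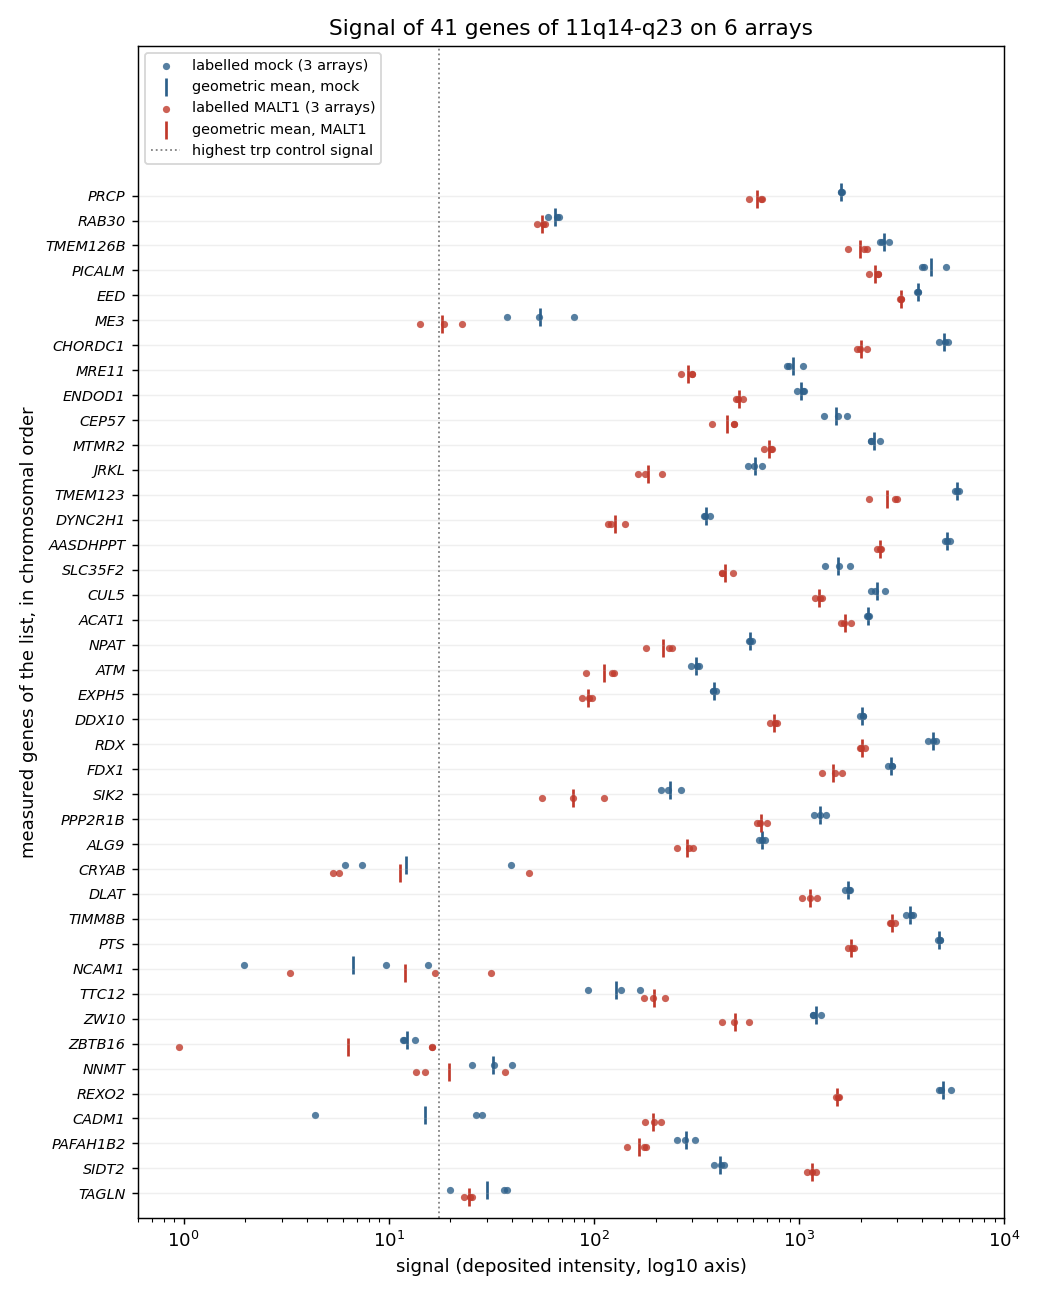
Signal of the 41 measured genes in chromosomal order (horizontal axis, deposited intensity, logarithmic), with a point for each of 3 arrays labelled MALT1 (red) and 3 labelled mock (blue), a bar at each group's geometric mean, and a dotted line at 17.6, the highest signal of any trp control probe set, from a bacterial gene. The red points lie left of all blue points in 33 genes and right of them in 3 (TTC12, CADM1 and SIDT2).

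All 5 measured genes of DNA damage signalling and cell division were at least 2-fold lower on the arrays labelled MALT1, as were 9.64% of all genes. ATM, the kinase that signals DNA double-strand breaks, read 125, 91.3 and 122 on the arrays labelled MALT1 and 319, 326 and 296 on those labelled mock. Its 2 groups did not overlap, and the difference was −1.48 ± 0.15 (SE) on the log2 scale. NPAT, which starts back to back with ATM and activates histone genes as cells enter S phase, read 233, 180 and 242 against 568, 576 and 592 (−1.42 ± 0.14). In both genes MALT1 replicate 2 was the lowest array. MRE11, the nuclease that trims broken DNA ends, read 302, 266 and 302 against 1047, 894 and 872 (−1.69 ± 0.12). CEP57, a centrosomal protein that stabilises microtubules, read 481, 482 and 376 against 1721, 1550 and 1324 (−1.78 ± 0.16). ZW10, which acts in the spindle checkpoint at the kinetochore, read 483, 419 and 569 against 1173, 1168 and 1276 (−1.31 ± 0.14). In each of these genes the highest array labelled MALT1 lay below the lowest labelled mock, as in 25.6% of all genes.

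The chromatin and transcription genes differed in size. JRKL, a relative of the jerky DNA-binding protein, read 177, 163 and 215 on the arrays labelled MALT1 and 661, 563 and 604 on those labelled mock (−1.72 ± 0.14). EED, the Polycomb subunit that binds methylated histone H3, differed little, with 3099, 3160 and 3161 against 3795, 3768 and 3798 (−0.27 ± 0.07). The groups did not overlap for EED, but its call was lost when any 1 of the 6 arrays was left out. ZBTB16, a zinc finger transcription factor, lay at or below 17.6 on all 6 arrays, and no fold is given for it.

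Both measured genes of RNA metabolism and the ubiquitin ligase scaffold CUL5 were lower. REXO2, an oligoribonuclease that clears short RNA fragments in mitochondria, read 1510, 1545 and 1570 on the arrays labelled MALT1 and 4902, 4796 and 5533 on those labelled mock (−1.72 ± 0.09). DDX10, a DEAD-box RNA helicase, read 786, 764 and 726 against 2050, 2042 and 1996 (−1.42 ± 0.08). CUL5 read 1292, 1261 and 1198 against 2257, 2362 and 2615 (−0.94 ± 0.10). In these 3 genes all arrays labelled MALT1 lay below the mock arrays, as in 25.6% of all genes.

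Of 6 genes of membrane traffic and cilia, 4 were called lower, where 19.2% of all genes were, and 2 were not called. EXPH5, a Rab effector in vesicle transport of epithelial cells, had the lowest difference of the list by its brightest probe set, reading 87.5, 98.5 and 95.0 on the arrays labelled MALT1 and 394, 379 and 382 on those labelled mock (−2.03 ± 0.09). MTMR2, a phosphoinositide phosphatase, read 679, 728 and 743 against 2495, 2237 and 2247 (−1.70 ± 0.09). DYNC2H1, the heavy chain of the dynein that moves cargo inside cilia, read 121, 142 and 117 against 343, 368 and 350 (−1.48 ± 0.11). PICALM, which helps to assemble clathrin coats, read 2417, 2443 and 2202 against 4074, 5222 and 3984 (−0.90 ± 0.14), with mock replicate 2 above the other mock arrays. RAB30, a GTPase of the Golgi, did not pass (52.6, 57.8 and 56.7 against 66.0, 60.0 and 67.9; −0.21 ± 0.09). TTC12, needed for ciliary dynein arms, went the other way without passing, at 194, 175 and 223 against 136, 93.9 and 167 (0.61 ± 0.24), although its groups did not overlap.

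The adhesion, surface and cytoskeletal genes held both the highest difference of the list and several genes near background. CADM1, an immunoglobulin-like adhesion molecule of epithelial cells, read 196, 177 and 212 on the arrays labelled MALT1 and 26.7, 4.39 and 28.6 on those labelled mock (3.57 ± 0.71). Without mock replicate 2, the lowest of its arrays, the difference was 2.77, and with 16 in place of 1 added before log2 it was 2.64, and the call was kept in both. On a second CADM1 probe set all mock arrays lay at or below 17.6, which gives a difference of at least 10.6-fold. TMEM123, a surface receptor-like protein, read 2925, 2993 and 2191 against 6061, 5916 and 5780 (−1.14 ± 0.15), with MALT1 replicate 3 below the other 2. RDX, or radixin, which ties actin to the cell membrane, read 1986, 2019 and 2108 against 4280, 4502 and 4671 (−1.14 ± 0.08). NCAM1, the neural cell adhesion molecule, read 3.29 to 31.7 against 1.98 to 15.5, and TAGLN, an actin-binding protein of smooth muscle, 23.2 to 25.5 against 19.8 to 37.8. Neither NCAM1 nor TAGLN passed, and the groups overlapped in both, but TAGLN passed as lower without mock replicate 1.

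The differences of the 6 mitochondrial genes ran from −1.53 to −0.29 with a median of −0.50, and 5 passed as lower (19.2% of all genes did). In all 6 every array labelled MALT1 lay below every mock array, as in 25.6% of all genes. DLAT, a subunit of pyruvate dehydrogenase, read 1225, 1132 and 1037 on the arrays labelled MALT1 and 1746, 1781 and 1668 on those labelled mock (−0.62 ± 0.10). FDX1, a ferredoxin that passes electrons to mitochondrial enzymes, read 1495, 1303 and 1620 against 2710, 2848 and 2846 (−0.93 ± 0.11). ACAT1, a thiolase of ketone body and isoleucine metabolism, read 1656, 1612 and 1791 against 2152, 2187 and 2182 (−0.37 ± 0.08). TIMM8B, a chaperone of protein import into mitochondria, read 2810, 2780 and 2952 against 3517, 3327 and 3619 (−0.29 ± 0.08). The call of TIMM8B was lost without any 1 of the 6 arrays, and that of ACAT1 without any 1 of them but MALT1 replicate 3. TMEM126B, an assembly factor of respiratory complex I, did not pass (1731 to 2138 against 2485 to 2737; −0.39 ± 0.12), although it passed as lower under 4 alternatives: 16 added before log2, dimmer probe sets dropped, a trend in the prior variance and the mean over a gene's probe sets. ME3, the mitochondrial NADP-dependent malic enzyme, was dim, at 18.6, 14.1 and 22.8 against 80.1, 54.0 and 37.6 (−1.53 ± 0.33). Its call was lost without MALT1 replicate 1, MALT1 replicate 2 or mock replicate 2.

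Among the other enzymes and transporters, 7 of 9 were called lower (19.2% of all genes), 1 higher (21.1%) and 1 was not called. SLC35F2, a solute carrier of the plasma membrane, read 420, 420 and 475 on the arrays labelled MALT1 and 1576, 1783 and 1333 on those labelled mock (−1.83 ± 0.14). PTS, an enzyme of tetrahydrobiopterin synthesis, read 1825, 1854 and 1726 against 4788, 4850 and 4891 (−1.43 ± 0.08). PRCP, a lysosomal carboxypeptidase, read 664, 654 and 570 against 1619, 1598 and 1612 (−1.36 ± 0.10). ALG9, a mannosyltransferase of N-glycan synthesis, differed by −1.22 ± 0.10. AASDHPPT, which attaches phosphopantetheine to carrier proteins, differed by −1.10 ± 0.08, and the nuclease-domain protein ENDOD1 by −1.01 ± 0.08. PAFAH1B2, a catalytic subunit of platelet-activating factor acetylhydrolase, read 146, 176 and 179 against 311, 279 and 255 (−0.75 ± 0.13). SIDT2, a lysosomal membrane protein that takes up nucleic acids, was higher, at 1160, 1101 and 1216 against 432, 416 and 384 (1.49 ± 0.09). NNMT, nicotinamide N-methyltransferase, was dim and its groups overlapped, at 13.6, 15.02 and 36.7 against 40.0, 25.4 and 32.6. It did not pass with all arrays and passed as lower without MALT1 replicate 3.

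The chaperone and signalling genes completed the list. CHORDC1, a co-chaperone of HSP90, read 1986, 2141 and 1921 on the arrays labelled MALT1 and 5151, 5356 and 4799 on those labelled mock (−1.34 ± 0.09). CRYAB, the small heat shock protein alpha-B crystallin, was at 5.35 to 48.2 against 6.15 to 39.7, above 17.6 on 1 array of each group, and did not pass. SIK2, a kinase of the AMPK family, read 79.4, 112 and 56.1 against 265, 231 and 211 (−1.55 ± 0.27). PPP2R1B, a scaffold subunit of protein phosphatase 2A, read 645, 621 and 701 against 1362, 1263 and 1185 (−0.95 ± 0.10). All arrays labelled MALT1 lay below the mock arrays in CHORDC1, SIK2 and PPP2R1B, as in 25.6% of all genes.

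Different probe sets of a gene, which read different parts of its transcripts, mostly lay on the same side. The 41 genes have 81 probe sets, and 21 genes have more than 1. Of the 40 probe sets that are not the brightest of their gene, 30 were above 17.6 on all arrays of at least 1 group, and 29 of these 30 had the sign of the brightest one. The exception was 1 of 3 probe sets of EXPH5, which was dim on the mock arrays (10.0 to 16.2) and read 22.4 to 23.1 on the arrays labelled MALT1, at least 1.29-fold higher. All 5 probe sets of CEP57 passed as lower, from −1.97 to −1.30, as did all 3 of ATM, from −1.48 to −1.36, and all 3 of MTMR2, from −1.83 to −1.48. CUL5 was spread more widely, from −1.88 to −0.94, with its brightest probe set at the smaller end. In PICALM 2 of 5 passed, and the 5 ranged from −0.90 to −0.07. In ENDOD1 and FDX1 the dimmer of 2 probe sets did not pass and its groups overlapped (−0.62 and −0.49). All 3 probe sets of CADM1 and both of SIDT2 passed as higher. With the mean over a gene's probe sets, dim ones included, EXPH5 was at −0.97, NPAT at −0.75 and SIK2 at −0.76, and SLC35F2, which has a single probe set, was the lowest of the list at −1.83. The calls of MRE11 and SIK2 were lost there. Without x_at and s_at probe sets MRE11 was at −0.86, on a probe set at or below 17.6 on 2 of the 3 arrays of each group. SIK2 then rested on a probe set at or below 17.6 on all 6 arrays, and no difference is given for it. Neither MRE11 nor SIK2 passed there. CADM1 rested on the probe set whose mock arrays were all at or below 17.6, with a difference of at least 10.6-fold.

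**Figure D2:**
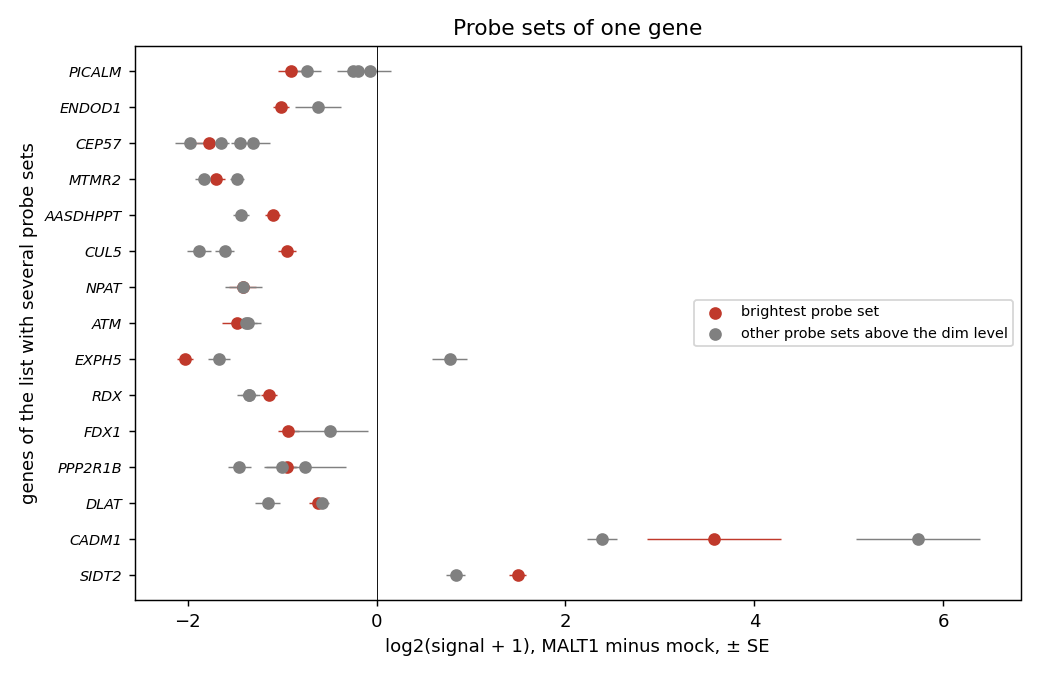
Log2 difference (MALT1 minus mock, horizontal axis, log2(signal + 1)) of each probe set above the dim level, with its SE as a bar, for the 15 genes of the list with more than 1 such probe set. The brightest probe set is red and the others grey, and EXPH5 is the 1 gene with probe sets on both sides of 0.

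Some other genes of the stretch were lower as well, and the lowest differences in it were among them. Between PRCP and PAFAH1B2, 113 genes were measured, 39 of them in the list. Of the other 74, 27 passed as lower (36.5%, against 19.2% of all genes), 5 as higher (6.76%, against 21.1%) and 42 did not pass, with a median difference of −0.44. Without the 14 MMP, caspase, IAP and YAP1 genes among them, 19 of 60 passed as lower (31.7%) and 5 as higher, and the median was −0.22. The difference was below 0 in 32 of these 60 and in 5450 of all 11963 genes. On chromosome 11 outside the stretch, 28.7% of genes before PRCP passed as lower, and 27.7% of those after PAFAH1B2 that are not in the list. Of the 74, 41 were above 17.6 on all arrays of at least 1 group. Of these 41, 26 passed as lower and 5 as higher, with a median of −1.02. For the 38 genes of the list that were above 17.6 in the same way the median was −1.14. Of all 8678 named genes above it, 2248 passed as lower and 2388 as higher. The lowest differences among those above background were those of CASP4, an inflammatory caspase, at 63.4 to 69.8 in the group labelled MALT1 and 613 to 678 in the mock group (−3.25 ± 0.09), and of the cytokine IL18, at 277 to 311 against 2292 to 2976 (−3.19 ± 0.14). The collagenase MMP13 (−2.75), the melanosome GTPase RAB38 (−2.61), the stromelysin MMP10 (−2.48) and the caspase CASP1 (−2.15) followed. These differences were all lower than that of the brightest EXPH5 probe set. YAP1, a transcriptional coactivator also kept out of the list, differed by −1.83. The collagenase MMP1 (−1.02), the apoptosis inhibitor BIRC2, at 1574 ± 96.9 against 3141 ± 113 (SD, n = 3 each), and MMP12 passed as lower too, MMP12 dim on all arrays labelled MALT1. MMP3, MMP7, MMP8, MMP20, MMP27 and CASP5 did not pass. Of the 14 measured MMP, caspase, IAP and YAP1 genes, 8 passed as lower (19.2% of all genes did) and none as higher (21.1%).

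A few neighbours were higher on the arrays labelled MALT1. SYTL2, a Rab effector related to the synaptotagmins, read 152 to 159 there and 0.28 to 1.59 on the mock arrays, at least 8.86-fold higher. GUCY1A2, a subunit of soluble guanylate cyclase, read 41.5 to 67.1 against 1.88 to 8.32, at least 3.10-fold higher. C11orf71 (1.48), the Wnt regulator DIXDC1 (1.07) and the Wnt receptor FZD4 (0.94) also passed as higher, and the apolipoprotein APOA1 (0.80) did not pass. Of the 113 measured genes of the stretch, the difference was below 0 in 81, and of all 11963 named genes in 5450.

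**Figure D3:**
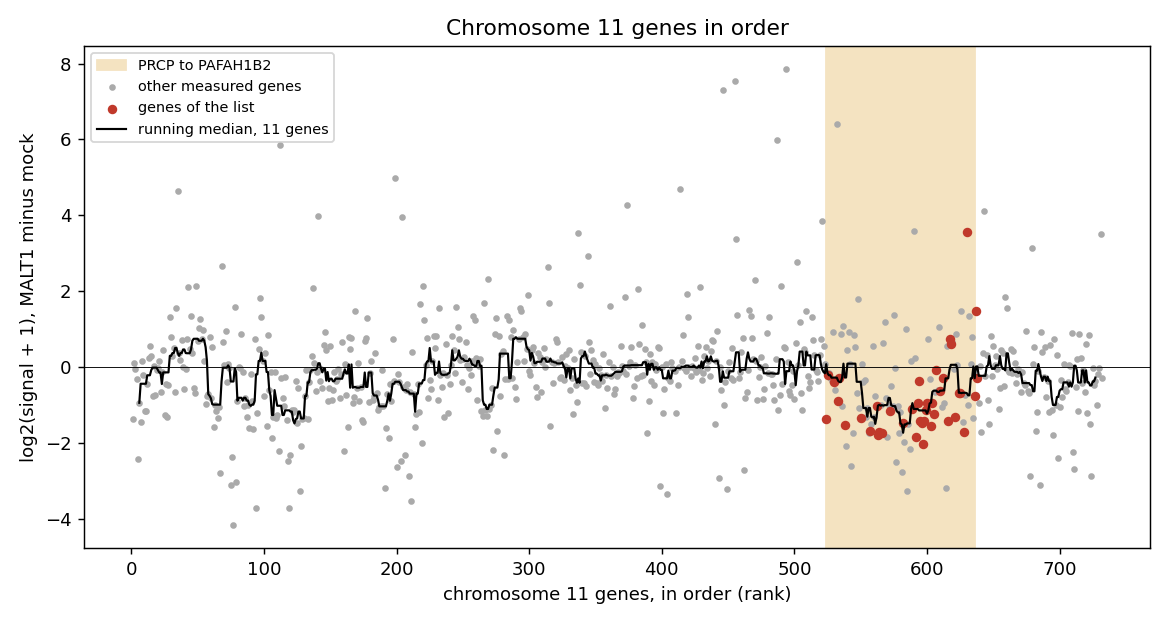
Log2 difference (MALT1 minus mock, vertical axis, log2(signal + 1)) of the 732 measured genes of chromosome 11 in order along the chromosome (horizontal axis, rank), with the genes of the list in red, the stretch from PRCP to PAFAH1B2 shaded and the running median of 11 genes as a black line. Within the shaded stretch the running median lies between −1.73 and 0.09.

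The differences were not even along the stretch. The running median over 11 neighbouring genes was lowest, at −1.73, around DYNC2H1, and this was also its lowest value on the chromosome. That window holds 1 gene of the list, DYNC2H1 itself, and 8 MMP and caspase genes that the list leaves out, some of them near background. On the side before PRCP the 5 nearest measured genes lay at or above 0: ALG8 (0.74), NARS2 (0.55) and GAB2 (3.85) passed as higher, while AAMDC (0.32) and TENM4 (0.08) did not pass. On the far side PCSK7 (−0.95) and CEP164 (−1.69) passed as lower, FXYD6 passed as at least 2.70-fold higher, and BACE1 and FXYD2 did not pass. Of the 523 measured genes of chromosome 11 before PRCP, 28.7% passed as lower and 13.96% as higher, with a median difference of −0.10. Of the 94 after PAFAH1B2 that are not in the list, 27.7% and 8.51% did, with a median of −0.18.

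**Figure D4:**
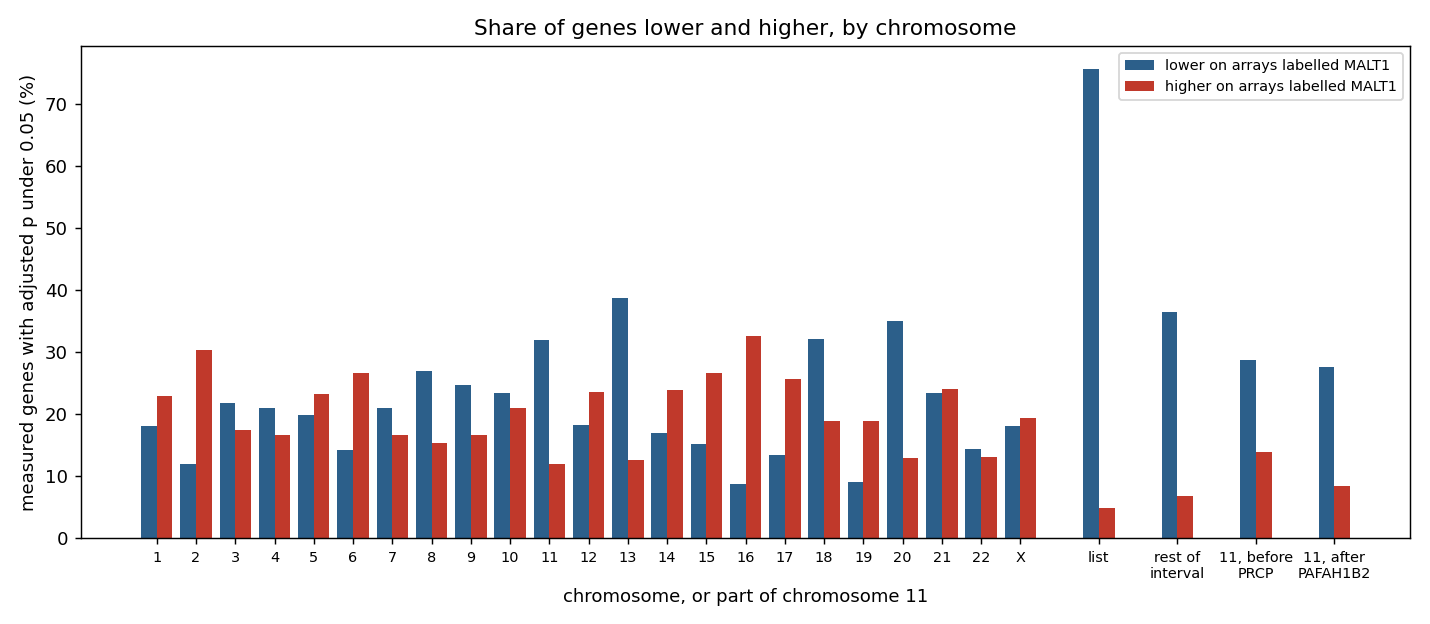
Share of measured genes (vertical axis, percent) that passed as lower (blue) or higher (red) on the arrays labelled MALT1, for chromosomes 1 to 22 and X and, at the right, for the list, the other genes of the stretch and the rest of chromosome 11. The list has 75.6% lower and 4.88% higher, and was chosen on this comparison.

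As a whole, chromosome 11 had 32.0% of its 732 measured genes lower and 12.0% higher. These 732 include the 41 genes of the list, 31 of them lower, which were chosen on this comparison and raise the share. Chromosomes 13 (38.8% lower), 20 (35.05%) and 18 (32.2%) had larger shares lower, and chromosome 16 the smallest (8.78%). The other 74 genes of the stretch had 36.5% lower and 6.76% higher. Differences between these shares were not tested, because the stretch was chosen on the same values.

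**Figure D5:**
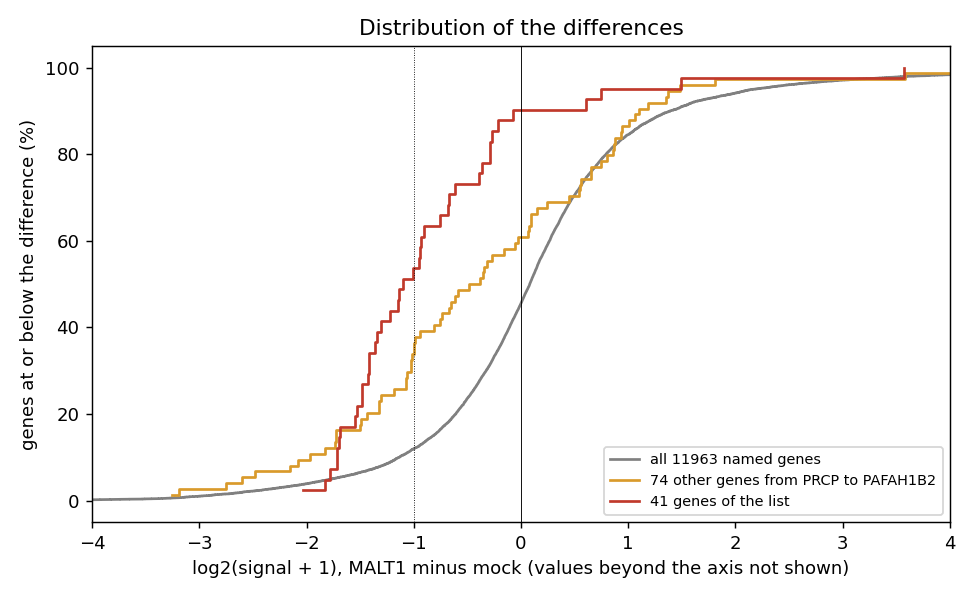
Cumulative share of genes (vertical axis, percent) against the log2 difference (MALT1 minus mock, log2(signal + 1)) for the 41 genes of the list (red), the 74 other genes from PRCP to PAFAH1B2 (orange) and all 11963 named genes (grey), with a dotted line at −1. The medians are −1.10, −0.44 and 0.08.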

How the data were processed

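The authors deposited 1 linear intensity per probe set and array. The program that made it is not stated in the sources used here. The values show a common scale: with the lowest and highest 2% trimmed, every array has a mean of about 500.2. Of 22277 probe sets, 62 controls were left out. Genes were named from probe sets with 1 platform symbol, and each gene took its brightest probe set over all 6 arrays. The genes of the list, the role groups and the tests were chosen with earlier results of these data known. Named genes were all those of the list, the 6 most different other genes of the stretch in each direction among those above background on all arrays of at least 1 group, the MMP, caspase, BIRC and YAP1 genes left out of the list, and the 5 nearest neighbours on each side.

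Signals were tested as log2(signal + 1) with limma 3.58.1 in R 4.3.3 on all 6 arrays with group as the only term, two-sided, with Benjamini-Hochberg adjustment over 22215 probe sets. The fit was tested on simulated data with independent noise and with shifts added to brighter probe sets only. That run does not cover effects shared by the arrays of a group, or shifts in dim probe sets. A signal at or below 17.6, the highest of the trp control probe sets, was taken as background, and a group wholly there gives only a bound. Gene order came from the RefSeq table of GRCh38.p14, and the array names no build.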

Additional observations from a re-analysis of the deposited data

How the results depend on the processing

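The count of genes of the list called lower was 31 as reported and 26 to 32 under the alternatives other than leaving out probe sets with the suffix x_at or s_at, which measured 33 genes and called 20. Without those probe sets EED (0.11) and SIK2 (0.037) changed sign, each then resting on a dimmer probe set. The median difference of the list was −1.23 after centring each array on its median, −1.05 with 16 added before log2, −1.22 with the dimmer probe sets left out, −0.91 with the mean over a gene's probe sets and −0.94 without x_at and s_at probe sets. It was −1.12 to −1.08 when 1 array was left out. Centring moved the median of all probe sets from 0.08 to −0.05. Of the other genes of the stretch, 5 passed as higher, while 2 did once dimmer probe sets were dropped and 2 without x_at and s_at probe sets. With the replicate number as a block, 26 genes of the list were called lower, with ACAT1, EED, ME3, PAFAH1B2 and TIMM8B lost. The labels do not say whether the numbers pair the samples. For same-numbered arrays, deviations from the group means correlated at 0.01, −0.03 and −0.01 over all probe sets. Above the median signal the correlations were 0.06, −0.002 and 0.06. With 3 arrays in a group these values cannot settle whether the samples were paired. EED, MRE11 and SIK2 were lost as lower calls with the mean over a gene's probe sets, and these 3, FDX1 and PPP2R1B without x_at and s_at probe sets. TTC12 passed as higher with dimmer probe sets dropped and with a trend in the prior variance. The number of arrays, and for CRYAB, NCAM1, NNMT, ZBTB16 and TAGLN signals near background, limit what can be told.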

Other observations

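Another part of chromosome 11 had similarly low running medians, outside the stretch described. Around CTR9, a subunit of the Paf1 transcription complex that lies well before PRCP in gene order, the running median over 11 genes was −1.48, and CTR9 itself differed by −1.13. This window was noticed after the values were seen and was not tested.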
